A study of Mus musculus with 21 samples.

Results

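Gene expression was examined for 8 genes of the immediate early response, the EGR transcription factors Egr1, Egr2 and Egr3, serum response factor (Srf), the EGR corepressor Nab2 and the immediate early response genes Ier2, Ier3 and Ier5. They were chosen by name, and all 8 were found among the 53738 gene symbols of the expression table. Of these, 6 passed the filter of a mean of at least 1 TPM (a transcript count scaled to a fixed library total) and were tested together with all 11822 genes that passed. Egr2 and Egr3 lay below the filter, and their levels are given as measured.

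The data are bulk RNA-seq of quadriceps muscle from wildtype male C57/Bl6 mice aged 22 to 26 weeks, in 7 groups of 3 libraries. Sedentary mice neither trained nor ran. Untrained and trained mice ran on a treadmill until exhausted in a final test and were killed at once (0 h) or 6 h or 72 h later. They had been accustomed to the treadmill for 3 days ahead of the performance tests. The trained mice had lived with a running wheel for 12 weeks before that final run. There was no trained group without the final run, so the effect of training at rest was not measured. TPM values are scaled to the length of the transcripts, so levels can be compared between genes of a library. They are also scaled to the total of each library. A level is thus a share of that total, and a shift in abundant transcripts between groups moves the values of the other genes.

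Immediate early genes are transcribed within minutes of a stimulus from factors that are already present in the cell. Serum response factor binds a DNA element called the CArG box, together with cofactors that answer to the MAP kinase cascade (the ternary complex factors) or to actin dynamics (the myocardin-related factors), and drives many of these genes. The EGR proteins are zinc finger factors that bind GC-rich sites, and NAB2 is a corepressor that binds EGR proteins and dampens their activity. In muscle, contraction, stretch and calcium are known triggers of this programme.

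The DNA elements that SRF and EGR proteins recognise were searched for in the promoters of these genes. Of the 8 genes, 5 had promoter windows in the RefSeq-derived table (GRCm38.p6), namely Srf, Egr2, Nab2, Ier3 and Ier5, with 9 windows in all because Egr2 has several annotated starts. The 250 bases before each start were searched on both strands for a CArG box (CC, then 6 bases that are each A or T, then GG) and for the EGR sites GCGGGGGCG and GCGTGGGCG. The Srf promoter held 2 CArG boxes and 1 EGR site within the 120 bases before its start on the minus strand, chr17:46556163-46556282, and the motifs did not overlap each other. Egr2 held a CArG box in 4 of its windows, of which the one at chr10:67537787-67537816 on the plus strand is printed. Some of these windows overlap and share the printed box, CCATATATGG, and another held CCTTTTTTGG. Capitals mark the motifs.
Srf: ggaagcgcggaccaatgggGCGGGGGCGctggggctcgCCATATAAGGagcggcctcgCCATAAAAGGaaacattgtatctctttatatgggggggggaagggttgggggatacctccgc
Egr2: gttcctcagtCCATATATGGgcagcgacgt

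A CArG box was present in 1.47% of the 32851 promoter windows, GCGGGGGCG in 2.57% and GCGTGGGCG in 0.536%. The windows of Nab2, Ier3 and Ier5 held none of these motifs in the 250 bases searched. A match is a description of the sequence and does not show that a factor was bound in these muscles.

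Several facts of the whole series bear on the values below. Replicate 1 of the untrained 0 h group and replicate 1 of the trained 0 h group held identical values for all 53738 symbols, 25037 of them above 0, so that the group of this library is not known. It was left out of both 0 h groups, which then have 2 libraries each, and the results with both columns kept as deposited are given beside the 0 h results. Each library added up to 997304 to 997921 TPM, the number of sequenced reads is unknown, and no counting error can be given. Myofibre markers (Acta1, Ckm, Mb, Tnnt3, Myh4 and Pvalb) together reached at least 53619 TPM in every library used, as muscle tissue should. In bulk tissue, fewer cells of a type and less RNA per cell cannot be told apart. Transcripts of the mitochondrial genome held 39.0% to 40.6% of the TPM of the 0 h libraries used and 42.2% to 46.9% of that of sedentary libraries. The median log2 fold change of all tested genes was 0.12 in trained 0 h compared to sedentary muscle and -0.14 from trained 0 h to 6 h. Median-of-ratios scaling brought these medians to -0.0047 and -0.0023, and the same 5 and 5 members were then called.

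All members but Srf rose steeply right after exercise in both training states. Egr1 had the largest change, from about 1 TPM in sedentary muscle to between 34.5 and 63.6 TPM at 0 h. At 6 h the genes parted. In trained muscle, none of the 6 tested genes was called against sedentary muscle, whereas Egr1, Nab2 and Ier5 were still elevated in untrained muscle and stood lower after training. At 72 h no tested gene was called in either training state. Here a gene is called at a Benjamini-Hochberg adjusted p below 0.05 over all tested genes (limma) and a change of at least 1.5-fold, fitted on the log2(TPM + 0.5) scale, which understates the change of low genes.

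**Figure D1:**
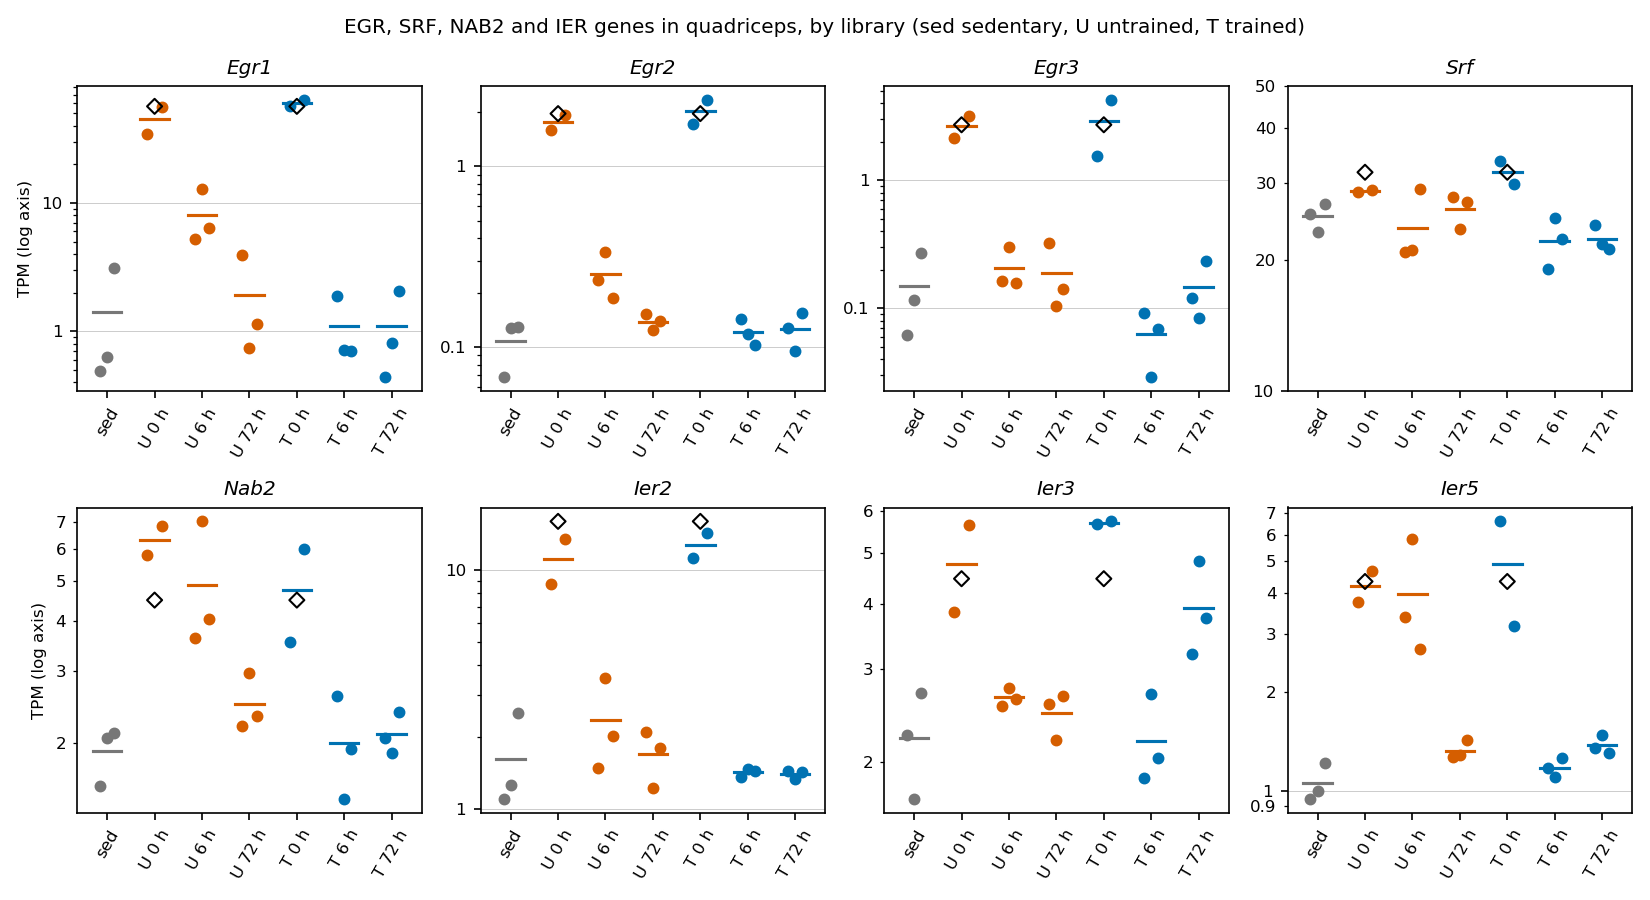
TPM of the 8 genes in each library, on log axes, for sedentary (grey), untrained (orange) and trained (blue) muscle by time after exercise, with points for libraries, bars for group means and an open diamond for the library deposited under both 0 h groups, which enters neither mean. Egr1 lies between 34.5 and 63.6 TPM in the 0 h libraries and at most at 3.90 TPM in sedentary, 72 h and trained 6 h libraries.

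In untrained muscle at 0 h, 5 of the 6 tested members were called higher than in sedentary muscle, where 2.43% of all tested genes were called higher. In trained muscle at 0 h it was again 5 of 6, against 3.05% of all tested genes. With the shared column kept in both groups, 5 of 6 were called in each case (backgrounds of 2.97% and 3.39%). Without the filter on low values, 7 of the 8 genes were called in each case (backgrounds of 1.08% and 1.19%), since Egr2 and Egr3 were then tested too. Srf was the member not called in any of these fits. With only the trained 0 h and sedentary libraries in the fit, 2 members were called, Egr1 and Ier2. The median log2 fold change of the 6 tested members was 1.55 in untrained and 1.46 in trained muscle, where that of all tested genes was 0.08 and 0.12. Each of these comparisons uses the same 3 sedentary libraries.

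Egr1 (ENSMUSG00000038418.10, GRCm39 chromosome 18, 34992876 to 34998049, plus strand) encodes the best known EGR factor, an early transcription factor of growth, stress and contraction signals. In sedentary muscle Egr1 was at 0.489, 0.627 and 3.10 TPM, in which replicate 3 stood above the other two. It reached 34.5 and 56.1 TPM in untrained and 56.9 and 63.6 TPM in trained muscle at 0 h, and 56.6 TPM in the library deposited under both groups. All 0 h libraries lay far above all sedentary ones, and both trained libraries lay above both untrained ones. The log2 fold change compared to sedentary muscle was 4.81 ± 0.639 (SE, limma adjusted p = 0.000377) in untrained and 5.26 ± 0.639 (limma adjusted p = 0.000166) in trained muscle. Leaving out the high sedentary library raised these changes to 5.40 and 5.84. The difference between the training states at 0 h, 0.45 ± 0.700, was within the error (limma adjusted p = 1).

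At 6 h, Egr1 was at 5.25, 12.7 and 6.36 TPM in untrained muscle and at 1.86, 0.715 and 0.699 TPM in trained muscle. The untrained libraries lay above all sedentary and all trained libraries, while the trained ones lay within the sedentary range. Compared to sedentary muscle the log2 change was 2.34 ± 0.572 (limma adjusted p = 0.0194) in untrained and -0.07 ± 0.572 (limma adjusted p = 0.962) in trained muscle. At 72 h it was 3.90, 0.744 and 1.14 TPM in untrained and 0.438, 0.809 and 2.06 TPM in trained muscle. These values overlapped the sedentary ones, and in each of the 3 groups 1 library stood above the other two.

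Egr2 (ENSMUSG00000037868.16, chromosome 10, 67371305 to 67378018, plus strand) encodes an EGR factor best known from Schwann cells and T cells. It was low in sedentary muscle, at 0.0681, 0.127 and 0.129 TPM, and reached 1.58 and 1.92 TPM in untrained and 1.71 and 2.33 TPM in trained muscle at 0 h. The shared 0 h library held 1.96 TPM. Every 0 h library lay above every library of the other groups, and the mean TPM was 16.2 times the sedentary mean in untrained and 18.7 times in trained muscle. An exact permutation test of 2 against 3 libraries cannot go below p = 0.2, which it gave in both cases, and with the shared column kept it gave p = 0.1, the smallest possible for 3 against 3. In the fit without the filter the log2 change was 1.88 ± 0.113 (limma adjusted p = 7.23e-07) and 2.04 ± 0.113 (limma adjusted p = 3.38e-07). At 6 h Egr2 was at 0.236, 0.336 and 0.187 TPM in untrained muscle, above all sedentary libraries, and at 0.142, 0.118 and 0.103 TPM in trained muscle, below all untrained ones (exact permutation p = 0.1 for each, the smallest possible). The summed levels of 5 Schwann cell markers were at most 8.64 TPM in the 0 h libraries used and 6.07 to 9.12 TPM in sedentary muscle, and the 1 that was tested was not called. At 72 h Egr2 was between 0.0955 and 0.154 TPM in both training states.

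Egr3 (ENSMUSG00000033730.6, chromosome 14, 70314350 to 70320063, plus strand) encodes the EGR factor needed for muscle spindles. In sedentary muscle it was at 0.0615, 0.116 and 0.269 TPM, and at 0 h it was at 2.12 and 3.19 TPM in untrained and at 1.55 and 4.23 TPM in trained muscle, with 2.70 TPM in the shared library. The 0 h libraries again lay above all others, and the trained pair spanned a wider range than the untrained pair. Mean TPM was 17.9 and 19.4 times the sedentary mean (exact permutation p = 0.2 for each, the smallest possible). Without the filter the log2 change was 2.27 in both training states (limma adjusted p = 0.000421 untrained and 0.000435 trained). At 6 h it was at 0.162, 0.300 and 0.157 TPM in untrained and at 0.0913, 0.0290 and 0.0683 TPM in trained muscle. The trained libraries lay below all untrained ones (exact permutation p = 0.1, the smallest possible), while the untrained libraries overlapped the sedentary range. At 72 h Egr3 was between 0.0841 and 0.321 TPM in both training states, which overlapped the sedentary range too.

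Srf (ENSMUSG00000015605.8, chromosome 17, 46857767 to 46867119, minus strand) encodes the factor known to bind CArG boxes, and 2 matches to this motif lie in its own promoter. It was the most abundant member in muscle at rest, with 25.4, 23.1 and 26.8 TPM in the sedentary libraries. At 0 h it was at 28.5 and 28.8 TPM in untrained, 33.6 and 29.9 TPM in trained and 31.7 TPM in the shared library. Every 0 h library lay above every sedentary one, but the step was small. The log2 change was 0.19 ± 0.140 (limma adjusted p = 0.524) in untrained and 0.33 ± 0.140 (limma adjusted p = 0.189) in trained muscle. At 6 h Srf was at 20.9, 21.1 and 29.0 TPM in untrained and at 19.0, 24.9 and 22.3 TPM in trained muscle, and both groups overlapped the sedentary one. From 0 h to 6 h in trained muscle it changed by -0.52 ± 0.140 (limma adjusted p = 0.0240), less than the 1.5-fold required, and by -0.36 after median-of-ratios scaling (limma adjusted p = 0.114). Srf passed both thresholds there without trained 6 h replicate 2 (-0.61, limma adjusted p = 0.0200). At 72 h it was at 27.8, 23.5 and 27.1 TPM in untrained and at 24.0, 21.7 and 21.1 TPM in trained muscle, which overlapped the sedentary range.

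Nab2 (ENSMUSG00000025402.14, chromosome 10, 127496786 to 127504458, minus strand) encodes the corepressor that EGR factors are known to induce. In sedentary muscle it was at 1.56, 2.05 and 2.11 TPM. At 0 h it was at 5.82 and 6.83 TPM in untrained, 3.54 and 5.99 TPM in trained and 4.50 TPM in the shared library, all above the sedentary range. The log2 change was 1.51 ± 0.260 (limma adjusted p = 0.00321) in untrained and 1.10 ± 0.260 (limma adjusted p = 0.0246) in trained muscle. The trained call was lost without sedentary replicate 1 or 2 or trained 0 h replicate 3 (limma adjusted p of 0.0938, 0.0574 and 0.237), and the untrained call without untrained 0 h replicate 3 (limma adjusted p = 0.0505).

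At 6 h Nab2 was still at 3.63, 7.03 and 4.05 TPM in untrained muscle, above all sedentary libraries, and at 2.60, 1.46 and 1.93 TPM in trained muscle, below all untrained ones. The untrained change compared to sedentary was 1.12 ± 0.233 (limma adjusted p = 0.00769) and the trained one 0.03 ± 0.233 (limma adjusted p = 0.956). At 72 h it was at 2.20, 2.97 and 2.33 TPM in untrained muscle, above the sedentary libraries by little (limma adjusted p = 0.898), and at 2.06, 1.89 and 2.38 TPM in trained muscle. Nab2 overlaps 3 genes on the opposite strand in the GRCm39 annotation, Stat6 by 77 bases, the long non-coding gene Gm16229 by 1646 bases and Nemp1 by 1689 bases. These overlaps are of whole gene spans, and exons were not compared. The library kit does not mark strand, so reads of any shared exons cannot be assigned with certainty. Gm16229 was called in the same comparisons with sedentary muscle as Nab2, with log2 changes of 1.63 at untrained 0 h, 1.28 at trained 0 h and 1.17 at untrained 6 h, whereas Stat6 and Nemp1 were called in none of the 12 comparisons.

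Ier2 (ENSMUSG00000053560.6, chromosome 8, 85387960 to 85389483, minus strand) encodes a small nuclear protein of the immediate early class. It was at 1.10, 1.25 and 2.50 TPM in sedentary muscle, and at 0 h at 8.70 and 13.4 TPM in untrained, 11.2 and 14.2 TPM in trained and 15.9 TPM in the shared library. The 0 h libraries lay above all others, and the log2 change was 2.47 ± 0.299 (limma adjusted p = 0.000159) in untrained and 2.69 ± 0.299 (limma adjusted p = 7.25e-05) in trained muscle. At 6 h it was at 1.48, 3.53 and 2.02 TPM in untrained and at 1.36, 1.46 and 1.43 TPM in trained muscle. All trained libraries lay below all untrained ones, but the difference of -0.51 ± 0.268 was not called (limma adjusted p = 0.327). At 72 h its values, 1.22 to 2.08 TPM in untrained and 1.33 to 1.44 TPM in trained muscle, lay within the sedentary range.

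Ier3 (ENSMUSG00000003541.8, chromosome 17, 36132568 to 36133815, plus strand) encodes a stress-induced protein known as a regulator of cell survival. In sedentary muscle it was at 2.25, 1.70 and 2.70 TPM. At 0 h it was at 3.85 and 5.65 TPM in untrained, 5.68 and 5.74 TPM in trained and 4.46 TPM in the shared library. All of these lay above the sedentary range, by a log2 change of 0.94 ± 0.187 (limma adjusted p = 0.00841) in untrained and 1.21 ± 0.187 (limma adjusted p = 0.00120) in trained muscle. The untrained call was lost without untrained 0 h replicate 3 (0.69, limma adjusted p = 0.156) and with only the compared groups in the fit (limma adjusted p = 0.180). At 6 h it was at 2.56, 2.77 and 2.64 TPM in untrained and 1.86, 2.69 and 2.03 TPM in trained muscle, and both groups overlapped the sedentary one.

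In trained muscle at 72 h Ier3 was at 3.21, 4.82 and 3.76 TPM, all above the sedentary libraries and above the untrained 72 h libraries at 2.57, 2.21 and 2.67 TPM. Compared to sedentary muscle the change was 0.70 ± 0.167 (limma adjusted p = 0.0782), and compared to untrained 72 h muscle 0.56 ± 0.167 (limma adjusted p = 0.124). Neither was called. With sample quality weights both were (limma adjusted p of 0.0325 and 0.0254), and the first also after rescaling without mitochondrial and top genes (0.78, limma adjusted p = 0.0411).

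Ier5 (ENSMUSG00000056708.6, chromosome 1, 154972107 to 154975382, minus strand) encodes a nuclear protein linked to heat shock factor activity. The span of the non-coding gene Gm69473 covers all 3276 bases of Ier5 on the same strand in the annotation. Exons were not compared here either, and reads of any shared exons cannot be assigned with certainty. On the opposite strand, long non-coding genes overlap Ier3 by 441 bases, Srf by 3605 and Egr2 by 565. Gm69473 and these genes were not found by name in the expression table. Srf also overlaps the microRNA gene Mir6976 by 63 bases on its own strand. Ier5 was at 0.948, 1.00 and 1.22 TPM in sedentary muscle. At 0 h it was at 3.76 and 4.66 TPM in untrained, 6.60 and 3.18 TPM in trained and 4.33 TPM in the shared library. All lay above the sedentary range, and the log2 change was 1.60 ± 0.258 (limma adjusted p = 0.00189) in untrained and 1.72 ± 0.258 (limma adjusted p = 0.000908) in trained muscle. At 6 h it was at 3.38, 5.81 and 2.71 TPM in untrained muscle, which overlapped the 0 h values, and at 1.17, 1.10 and 1.26 TPM in trained muscle. The change compared to sedentary was 1.46 ± 0.231 (limma adjusted p = 0.00113) in untrained and 0.11 ± 0.231 (limma adjusted p = 0.819) in trained muscle. At 72 h it was at 1.26 to 1.43 TPM in untrained and 1.30 to 1.48 TPM in trained muscle, just above all sedentary libraries in both states, and was not called (limma adjusted p of 0.930 and 0.680).

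**Figure D2:**
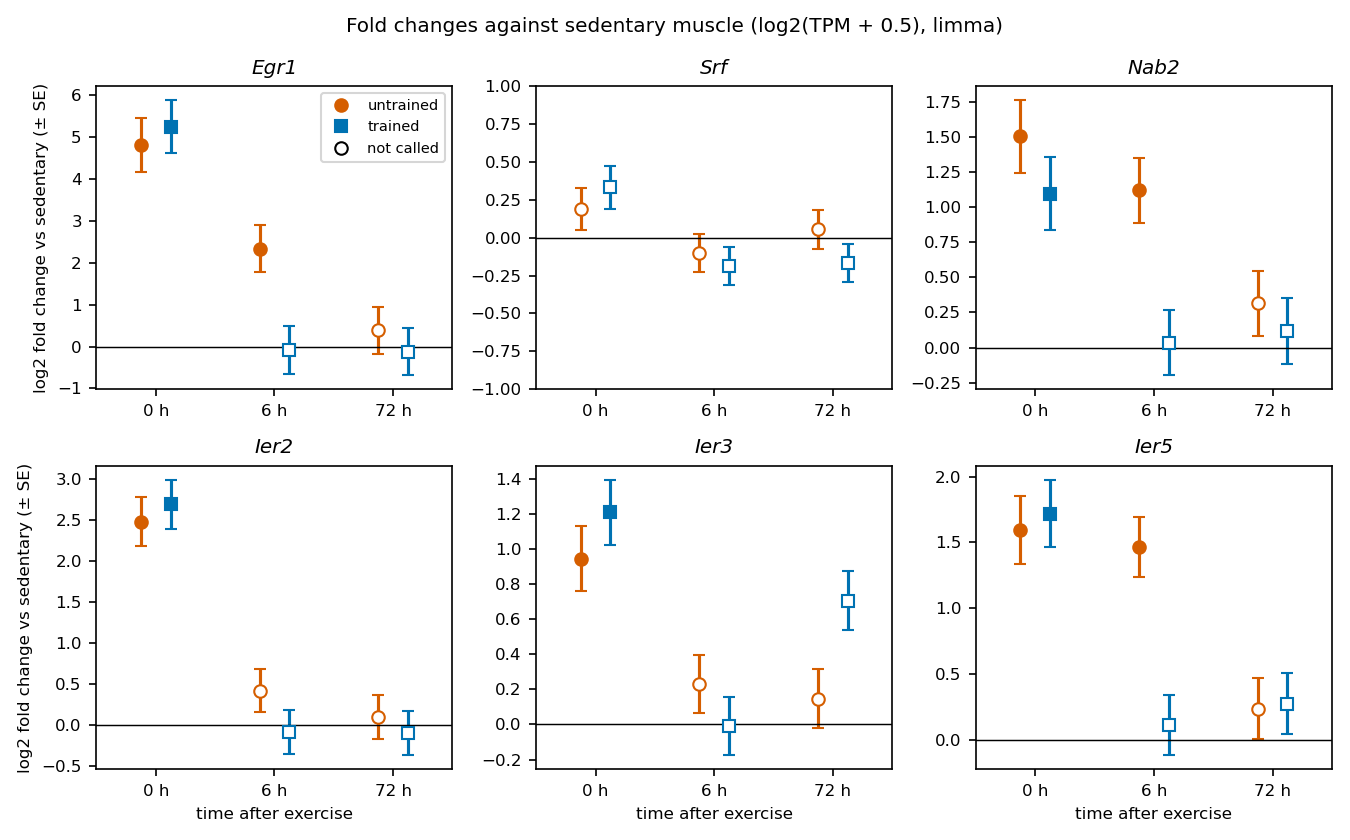
Log2 fold change compared to sedentary muscle (± SE) of the 6 tested genes by time after exercise, for untrained (orange circles) and trained (blue squares) muscle, each panel on its own axis, with filled symbols where a change is called. At 6 h the untrained values of Egr1 (2.34), Nab2 (1.12) and Ier5 (1.46) are filled and all trained values are open.

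By mean TPM, trained 0 h muscle was highest for 7 of the 8 genes, and untrained 0 h muscle for Nab2. These 0 h means are of 2 libraries each, and the share of all genes with this order was not counted. The median log2 change of all tested genes from untrained to trained 0 h muscle was 0.04. Untrained 6 h muscle came next after both 0 h groups for Egr1, Egr2, Egr3, Ier2 and Ier5, and for Nab2 it came before trained 0 h muscle. For Egr1 the libraries of the first 3 groups in this order did not overlap with their neighbours, and below them untrained 72 h, sedentary, trained 72 h and trained 6 h muscle overlapped each other. The gap between the 0 h groups, from 56.1 TPM in untrained to 56.9 TPM in trained muscle, was small. The shared library, at 56.6 TPM, lies within it. For Ier5 the order trained 0 h, untrained 0 h and untrained 6 h was one of overlapping neighbours, followed by a gap. At 0 h itself, 0 of 6 tested members and 0% of all tested genes were called between trained and untrained muscle (limma), also with the shared column kept. At an unadjusted p below 0.05 the count of members was again 0. Without the shared column, 527 of all 11822 tested genes had such a p.

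At 6 h, trained muscle was set against untrained muscle directly. Levels at this time alone do not measure how soon the response ended, and any difference between the training states at rest would be included. The change from 0 h to 6 h is compared further below. In the direct comparison at 6 h, 3 of 6 tested members were called lower, against 1.34% of all tested genes. Egr1 was lower by a log2 value of -2.41 ± 0.572 (limma adjusted p = 0.0279), Ier5 by -1.35 ± 0.231 (limma adjusted p = 0.00434) and Nab2 by -1.09 ± 0.233 (limma adjusted p = 0.0170). For Egr1, Egr2, Egr3, Nab2, Ier2 and Ier5 all 3 trained libraries lay below all 3 untrained ones, and for Srf and Ier3 they overlapped. For Ier2 the highest trained value was 1.46 TPM and the lowest untrained value 1.48 TPM. The share of all genes whose libraries separated in this way was not counted. Compared to sedentary muscle, 3 of 6 members were called higher at untrained 6 h (background 3.38%) and 0 of 6 in either direction at trained 6 h (background 3.81%). At an unadjusted p below 0.05 the trained count was also 0, where 2980 of all 11822 tested genes had such a p.

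Single libraries carried part of this difference. Without untrained 6 h replicate 2, which held the highest value of every member but Srf in its group, the trained minus untrained difference of Egr1 was -2.06 (limma adjusted p = 0.123), that of Nab2 -0.82 (limma adjusted p = 0.0723) and that of Ier5 -1.07, which was still called in this and all 6 fits that left out 1 library. Egr1 also missed the threshold without untrained 6 h replicate 3 or trained 6 h replicate 2 or 3, and Nab2 without trained 6 h replicate 2 or 3. Egr1 missed it as well when genes of all levels were tested (limma adjusted p = 0.0666). The rise of Egr1 over sedentary muscle at untrained 6 h was likewise not called without sedentary replicate 1 or 2 or untrained 6 h replicate 2 (limma adjusted p between 0.0784 and 0.0848). With only the 6 compared libraries in the fit, neither the trained minus untrained differences of Egr1, Nab2 and Ier5 (limma adjusted p of 0.121, 0.236 and 0.148) nor their rises at untrained 6 h (0.125, 0.0978 and 0.0567) were called.

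Some macrophage markers also differed between the training states at 6 h. The 6 markers together (Adgre1, Csf1r, Cd68, Mrc1, C1qa and C1qb) summed to 19.3, 40.6 and 29.2 TPM in untrained 6 h replicates 1, 2 and 3, to 14.7 to 20.0 TPM in trained 6 h and to 17.2 to 19.9 TPM in sedentary muscle. Of the 5 that were tested, 2 were called higher at untrained 6 h than in sedentary muscle and lower in trained than in untrained 6 h muscle, Cd68 (1.62 and -1.47) and Csf1r (0.61 and -0.78), and none was at 0 in all libraries. The library with the highest sum was also the one highest in every member but Srf. The 5 markers of fibro-adipogenic cells summed to 138, 377 and 260 TPM in the same 3 libraries, with replicate 2 again the highest, to 225 to 258 TPM at trained 6 h and to 233 to 273 TPM in sedentary muscle. None of the 5 was called between the training states at 6 h. In untrained 6 h replicate 1 the macrophage sum was within the sedentary range, and the fibro-adipogenic sum of 138 TPM was below it. Egr1, Nab2 and Ier5 were at 5.25, 3.63 and 3.38 TPM in that library, above all sedentary libraries. The macrophage sum at untrained 72 h was 27.7 to 28.4 TPM. The part of macrophages and fibro-adipogenic cells in the 6 h difference was not tested. The mitochondrial share of the TPM also separated the groups, at 43.7%, 40.6% and 43.5% in untrained and 47.0%, 46.5% and 45.7% in trained 6 h replicates 1, 2 and 3. It was lowest in untrained replicate 2. After rescaling without mitochondrial and top genes the differences of Egr1, Nab2 and Ier5 were -2.34, -1.01 and -1.28, and all 3 were called (limma adjusted p of 0.0235, 0.0141 and 0.00374).

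**Figure D3:**
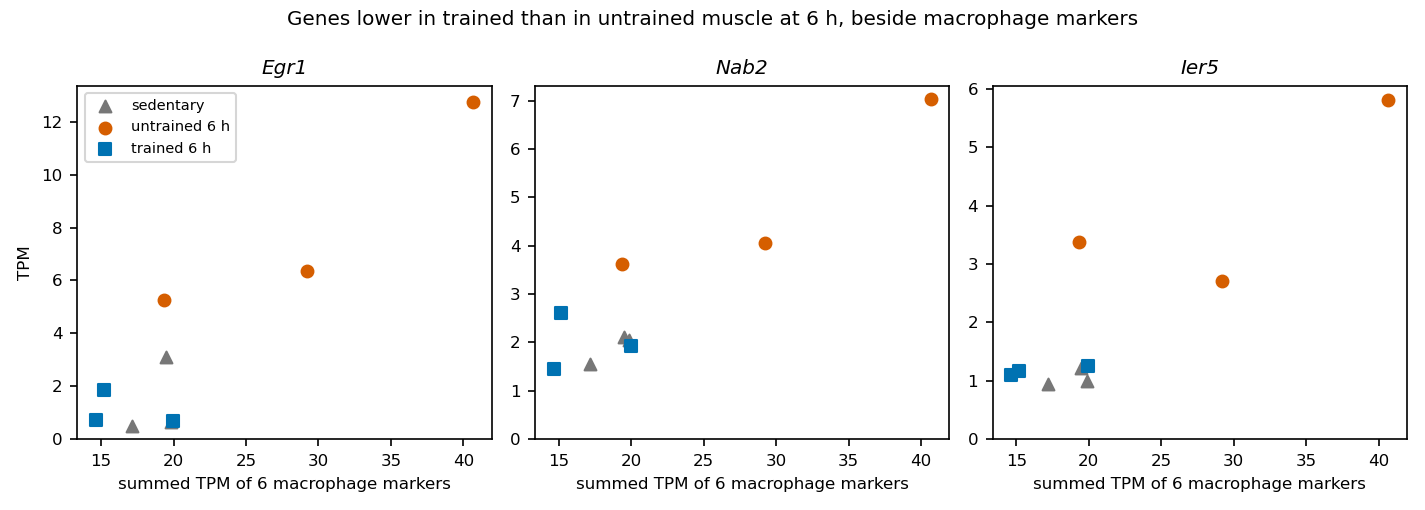
TPM of Egr1, Nab2 and Ier5 (vertical axes from 0) against the summed TPM of 6 macrophage markers in the sedentary, untrained 6 h and trained 6 h libraries, 1 symbol per library. The untrained library with the highest marker sum (40.6 TPM) is also highest in all 3 genes. The untrained library with a sum of 19.3 TPM, inside the sedentary range, lies above all sedentary and trained libraries in all 3 genes. The sum chiefly follows the more abundant markers and does not show each of them.

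The fall from 0 h to 6 h was compared within each training state. In trained muscle, 5 of 6 tested members were called lower at 6 h than at 0 h (background 4.51%, and 5 of 6 against 4.94% as deposited). In untrained muscle it was 3 of 6 (background 2.31%, and 3 of 6 against 2.6% as deposited), namely Egr1 (-2.47 ± 0.639, limma adjusted p = 0.0318), Ier2 (-2.05 ± 0.299, limma adjusted p = 0.000808) and Ier3 (-0.71 ± 0.187, limma adjusted p = 0.0336). In trained muscle Egr1 fell by 5.33, Ier2 by 2.78, Ier5 by 1.61, Ier3 by 1.22 and Nab2 by 1.06 on the log2 scale. In untrained muscle Nab2 changed by -0.39 (limma adjusted p = 0.428) and Ier5 by -0.13 (limma adjusted p = 0.821). Of the untrained falls, that of Ier2 was called in all 5 fits that left out 1 library, while those of Egr1 and Ier3 were called in 1 of 5 each, with limma adjusted p up to 0.226 and 0.326, both without untrained 0 h replicate 3. Under the other alternatives they were called in 9 of 14 and 8 of 13 fits. The trained fall of Nab2 was not called without trained 0 h replicate 3 or trained 6 h replicate 2 (limma adjusted p of 0.173 and 0.0518).

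Expressed as the share of the 0 h rise over sedentary muscle (mean TPM) that was left at 6 h, untrained muscle kept 92.3% for Ier5 and 67.7% for Nab2, but 17.2% for Ier3, 15.3% for Egr1, 8.83% for Egr2, 7.71% for Ier2 and 2.31% for Egr3. In trained muscle the share was at most 3.16%, reached by Ier5, and it was below 0 for Egr1, Egr3, Ier2 and Ier3. With the shared column kept, the untrained share was 91.1% for Ier5 and 78.6% for Nab2. With 1 library left out at a time, an alternative chosen after seeing the data, it ranged from 63.1% to 112% for Ier5, from 43.7% to 82.2% for Nab2, from 10.02% to 20.3% for Egr1 and from 7.80% to 26.7% for Ier3. The lowest values of Ier5, Nab2 and Egr1 were those without untrained 6 h replicate 2, where Ier2 kept 1.42% and Egr3 0.446%. The trained shares then ranged from -8.79% for Ier3 to 12.5% for Nab2. The test of the difference itself, the 0 h to 6 h change in trained minus that in untrained muscle, called 0 of 6 members (background 0.321%). At an unadjusted p below 0.05 it was 2, Ier5 with a log2 difference of -1.48 ± 0.365 (limma adjusted p = 0.122) and Egr1 with -2.86 ± 0.904 (limma adjusted p = 0.254). Of all 11822 tested genes, 1293 had such an unadjusted p in this test. With the shared column kept in both 0 h groups, 1 of 6 was called (background 0.651%), Ier5 at -1.44 ± 0.305 (limma adjusted p = 0.0385), and the column then enters both sides of the difference. Ier5 was also called without trained 0 h replicate 3, at -1.95 (limma adjusted p = 0.0296).

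**Figure D4:**
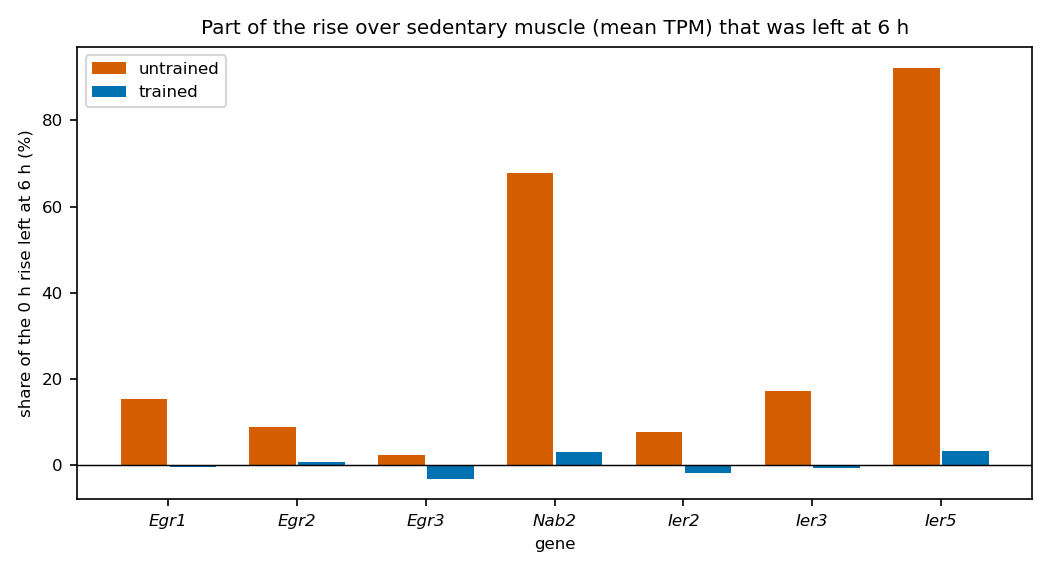
Share of the 0 h rise in mean TPM over sedentary muscle that was left at 6 h, in percent, for untrained (orange) and trained (blue) muscle. Bars are ratios of group means without error bars, Srf is left out because its rise was not called, and untrained bars reach 92.3% for Ier5 and 67.7% for Nab2 where no trained bar exceeds 3.16%.

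By 72 h, 0 of 6 tested members were called in untrained muscle compared to sedentary (background 0.00846%), 0 of 6 in trained muscle compared to sedentary (background 0.245%), and 0 of 6 between trained and untrained muscle (background 0.364%). At an unadjusted p below 0.05 the counts were 0, 1 and 1, the latter both Ier3. Of all 11822 tested genes, 717, 1512 and 1929 had such a p in these comparisons. The median log2 change of the 6 tested members was 0.19 in untrained and 0.01 in trained muscle compared to sedentary.

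The other members of the same families gave few values. Egr4, an EGR factor of neural tissue, was at or below 0.00812 TPM in all libraries. Ier5l, a relative of Ier5, was below the filter, at 0.222 to 0.337 TPM in sedentary muscle and at 0.846 to 1.28 TPM in the 0 h libraries, without overlap, and at 6 h it was back at 0.187 to 0.380 TPM in both training states. Nab1, the second NAB corepressor, was tested and was called in 0 of the 12 comparisons. Its log2 change was 0.48 at untrained 0 h, 0.54 at trained 0 h and 0.52 at untrained 6 h (limma adjusted p of 0.214, 0.131 and 0.0857).

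Of the cofactors of SRF and their activator (Mrtfa, Mrtfb, Myocd, Elk1, Elk3, Elk4 and Abra), 6 of 7 were tested. Abra, also known as STARS, is a muscle protein that binds actin and activates myocardin-related factors. It was at 19.5 to 21.0 TPM in sedentary muscle, at 62.8 and 69.2 TPM in untrained and 95.6 and 48.0 TPM in trained muscle at 0 h, and at 89.0, 120 and 98.4 TPM at untrained 6 h against 59.9, 33.8 and 28.2 TPM at trained 6 h. All of these groups lay above the sedentary one without overlap. Abra was called higher in all 4 (log2 changes of 1.69, 1.73, 2.31 and 0.92, limma adjusted p of 0.00236, 0.00183, 5.43e-05 and 0.0314) and lower in trained than in untrained 6 h muscle (-1.39 ± 0.252, limma adjusted p = 0.00621). In untrained muscle it was thus not lower at 6 h than at 0 h, unlike Egr1 and Ier2. Elk3, a ternary complex factor, was called lower at untrained 0 h (-0.62, limma adjusted p = 0.0166), and the other 4 tested genes were called in no comparison.

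Of 15 genes of the RAS, RAF, MEK and ERK cascade, 14 were tested. None was called at 0 h in either training state (limma, with 3 in untrained and 2 in trained muscle at an unadjusted p below 0.05), with a median log2 change of 0.14 in each. Such a p was found in 2066 and 2578 of all 11822 tested genes. The scaffold gene Ksr1 was called lower at trained 6 h compared to sedentary muscle (-0.68 ± 0.102, limma adjusted p = 0.00113) and compared to trained 0 h (-0.82 ± 0.115), and it was the sole call of this list in the 12 comparisons.

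Other immediate early genes with known SRF sites (Fos, Fosb, Fosl1, Junb, Mcl1, Nr4a1, Ccn1, Ccn2 and Arc) were followed alongside. All 8 that were tested were called higher at 0 h in both training states, led by Fos with log2 changes of 5.69 in untrained and 6.19 in trained muscle, then Fosb (3.57 and 3.76). At 6 h, 5 of 8 were called higher in untrained muscle, led by Fos (2.94) and the matricellular gene Ccn1 (2.44), and 0 of 8 in trained muscle (limma, with 2 at an unadjusted p below 0.05). Such a p was found in 2980 of all 11822 tested genes in trained muscle. Trained muscle was lower than untrained muscle at 6 h in 3 of 8, Fos (-2.93), Ccn1 (-2.03) and Fosb (-0.75). The 3 that were called at 0 h but not at untrained 6 h were Nr4a1, Junb and Ccn2.

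Contractile and cytoskeletal genes with known SRF sites responded in part. At 0 h, 5 of 12 tested were called higher in untrained muscle, led by Actg1 (1.07), Actb (1.03), Tpm4 (1.02) and Flna (0.86), and 4 of 12 in trained muscle, led by Actg1 (1.14), Tpm4 (1.00) and Flna (0.79). Compared to sedentary muscle at 6 h, vinculin (Vcl) was the 1 gene of this list called, in untrained (0.89) and in trained muscle (0.70). From 0 h to 6 h, 5 of 12 were called lower in untrained muscle, led by Zyx (-1.31), Actb (-1.20), Actg1 (-1.12) and Flna (-0.91). In trained muscle it was 4 of 12, Actg1 (-1.44), Tpm4 (-1.27), Actb (-1.09) and Flna (-1.01). Between the training states at 6 h, 0 of 12 were called (limma), and 2 had an unadjusted p below 0.05. Such a p was found in 2260 of all 11822 tested genes. Of 8 textbook targets of EGR1 (among them Pdgfa, Pdgfb, Tgfb1 and F3), 6 were tested and 0 were called in any of the 12 comparisons, with a median log2 change of 0.43 at untrained 0 h and 0.30 at untrained 6 h, where that of all tested genes was 0.08 and 0.01. At an unadjusted p below 0.05 there were 3 at 0 h and 2 at 6 h in untrained muscle. Of all 11822 tested genes, 2066 and 2612 had such a p there. The libraries were taken at 3 times only, so targets that changed between 0 h and 6 h would not be seen.

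The genes most like each tested member were ranked by Pearson's r of log2(TPM + 0.5) over the 20 distinct libraries, a description that chiefly follows the 0 h libraries, which all of these genes share. Egr1 was most like Fos (r = 0.989), Btg2 (0.980) and Jun (0.960). Ier2 was most like Errfi1 (0.986), Sik1 (0.977) and Tamalin (0.976), and Ier5 most like Otud1 (0.960), the heat shock gene Dnajb1 (0.955) and Ccn1 (0.941). The closest genes to Nab2 were Gm16229 (0.959), whose annotated span overlaps its own, Rybp (0.919) and Tuba1c (0.912). Ier3 went with Gm26532 (0.926), the clock output gene Ciart (0.899) and Id1 (0.895), and Srf with Xrcc2 (0.896), Tmem170b (0.873) and Nxn (0.869).

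The members were also compared within groups, as deviations of each library from its group mean over 19 libraries, which removes the shared time course. Egr1 went with Fos (r = 0.89) and Ier2 (r = 0.75), and Egr2 with Egr3 (r = 0.88). Nab2 followed Egr2 (r = 0.77) more than Egr1 (r = 0.43). In a 0 h group of 2 libraries the deviations are equal and opposite. Those of the trained 0 h pair were the largest of all for Egr2 (0.179 either way) and Egr3 (0.605). The largest for Nab2 was 0.531, in untrained 6 h replicate 2. The r values of Egr2 with Egr3 and with Nab2 thus rest in good part on few libraries. Srf had no positive relation above 0.33 with any other member and was opposite to Nab2 (r = -0.57). Ier5 was not closely tied to any EGR factor, with r between -0.28 and 0.28. The low values of Egr2 and Egr3 lie near the pseudocount of 0.5 outside the 0 h groups, which compresses their deviations there.

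**Figure D5:**
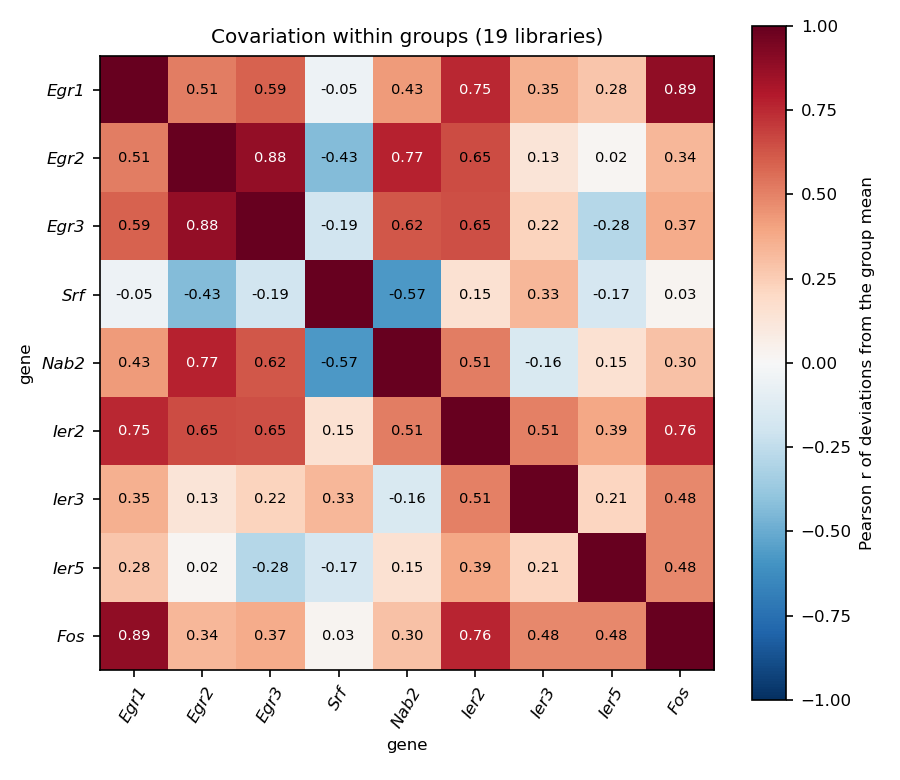
Pearson's r between genes of the deviations of log2(TPM + 0.5) from the group mean, over 19 libraries, for the 8 genes and Fos. Red is positive and blue negative, the highest values are between Egr1 and Fos (0.89) and between Egr2 and Egr3 (0.88), and the lowest is between Srf and Nab2 (-0.57).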

How the data were processed

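Quadriceps RNA was sequenced by the authors with an unstranded kit (TruSeq v2), and reads were aligned to GRCm39 with STAR 2.7.9 and quantified with Salmon 1.5.0, per the methods and the submitters' processing notes. The authors deposited TPM values per gene symbol for 21 columns, and 0 columns lacked a sample. Values were used as log2(TPM + 0.5), with genes of a mean of at least 1 TPM tested. limma 3.58.1 (R 4.3.3) was used to fit a model with 1 mean per group (variance trend, 12 residual degrees of freedom, 19 libraries), and p-values were adjusted over all tested genes (Benjamini-Hochberg) within each of 12 comparisons. The procedure was tested on simulated data. Genes below the filter were compared with two-sided exact permutation tests. Nothing in the labels ties the libraries to litters or days, and p-values measure the spread between these libraries. Same-numbered libraries did not deviate together (r between -0.0875 and 0.0896), so no pairing was used.

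The 8 genes and the lists of cofactors, kinases, targets and markers of cell types were chosen with earlier results of these data known. A gene of the target list and a gene of the Schwann cell list are not reported here. From each list other than the markers, the called genes were named, at most 4 per comparison by the size of the change, and for each tested member the 3 genes with the highest r. Promoter windows came from RefSeq (GRCm38.p6) and gene positions from the GRCm39 annotation (GENCODE). No promoter window was matched for Egr1, Egr3 and Ier2. Alternatives changed the pseudocount, the filter, the scaling, the variance model, the samples in the fit and the fold threshold, or left out each library in turn. Figures were drawn with matplotlib 3.10.9.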

Additional observations from a re-analysis of the deposited data

Results flagged for a closer look

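The levels of trained and untrained muscle at 6 h after exercise differed, by a direct test, for 3 of the 6 tested genes. Egr1 was lower in trained muscle by a log2 value of -2.41 (limma adjusted p = 0.0279), with 3 of 3 trained libraries below all untrained ones. Nab2 was lower by -1.09 (limma adjusted p = 0.0170) and Ier5 by -1.35 (limma adjusted p = 0.00434), each again in 3 of 3 libraries. The share of all genes whose libraries separated in this way was not counted. The test of the 0 h to 6 h change, trained minus untrained, called 0 of 6 (limma adjusted p of 0.254 for Egr1, 0.541 for Nab2 and 0.122 for Ier5). At an unadjusted p below 0.05 it was 2 of 6, where 1293 of all 11822 tested genes had such a p. With only the compared groups in the fit, none of the 3 differences at 6 h was called. The 3 genes share the libraries and the highest untrained library, and the sums of macrophage and fibro-adipogenic markers were also highest there, whose part in the differences was not tested. No difference between the training states was called at 0 h or 72 h. Groups of at most 3 libraries were not tested for outlying libraries.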

How the results depend on the processing

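Across the 12 comparisons the number of called members was within 1.5 times its reported value in 213 of 238 alternative fits, and no called change turned its sign in any of them. With a mean of at least 5 TPM required, only Egr1 and Srf were tested, and 1 member was called in untrained 0 h, untrained 6 h and trained 0 h compared to sedentary, in trained compared to untrained 6 h, and in the change from 0 h to 6 h in either state. With only the compared groups in the model, which leaves few degrees of freedom, the count was 0 at untrained 6 h, 2 at trained 0 h, 0 for trained compared to untrained 6 h, 0 for untrained 6 h compared to 0 h and 3 for trained 6 h compared to 0 h. Sample quality weights gave 1 call, Ier3, at trained 72 h compared to sedentary and to untrained 72 h, and 1 in place of 3 for untrained 6 h compared to 0 h, and rescaling without mitochondrial and top genes gave 1, Ier3, at trained 72 h. With the identical columns kept, the difference of the 0 h to 6 h change called 1 member. The replicate block, although the numbers do not pair the libraries, reduced the untrained fall to 1 call, Ier2, and trained 0 h to 4, without Nab2, and it changed no other count. Leaving out 1 library gave 3 to 5 calls at untrained 0 h, 1 to 3 for trained compared to untrained 6 h, 1 to 2 for untrained 6 h compared to 0 h and 0 to 1 for the difference of the changes. Where this left a 0 h group with 1 library, that library was assumed to vary like the other groups. With only the compared groups, Ier3 was also lost at untrained 0 h while Egr3 was tested and called, which left the count at 5. The cause of these shifts was not tested.

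Depth is unknown, and low values such as those of Egr2, Egr3 and Egr4 carry no counting error. The 2 libraries per 0 h group limit the 0 h comparisons. Uncalled changes took the other sign in 34 of 1411 values for single members.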

Other observations

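The marker lists of other cell types, beyond macrophages, showed few calls. Collagen genes of fibro-adipogenic cells were lower at trained 6 h, Col3a1 compared to sedentary muscle (-1.35, limma adjusted p = 0.0373) and Col1a1 (-1.49) and Col3a1 (-1.37) compared to trained 0 h. The pericyte receptor Pdgfrb was lower at untrained 0 h than in sedentary muscle (-0.66) and higher at 6 h than at 0 h in untrained (0.81) and trained muscle (0.63). Among the 6 myofibre markers, 1 was called between the training states at 6 h. This was Mb, which stores oxygen as myoglobin, and it stood higher in trained muscle (0.73, limma adjusted p = 0.0218). The median log2 change of the 6, trained compared to untrained, was -0.12, where that of all tested genes was -0.04. At an unadjusted p below 0.05 there were 4, against 2260 of all 11822 tested genes. The 6 markers summed to 53619 to 61902 TPM at trained 6 h and to 61762 to 65165 TPM at untrained 6 h. The 1 tested marker of Schwann cells, 5 of endothelial cells and 5 of red blood cells had 0 calls in the 12 comparisons (limma). At an unadjusted p below 0.05 there were at most 0, 3 and 4 in any comparison with sedentary muscle. The 3 were at trained 72 h and the 4 at untrained 72 h, where 1512 and 717 of all 11822 tested genes had such a p. The markers of satellite cells and neutrophils lay below the filter, with summed levels of at most 1.93 and 1.72 TPM in the libraries used. Cd68 was also higher in untrained 72 h than in sedentary muscle (1.53, limma adjusted p = 0.0388).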
